A study of Homo sapiens with 6 samples.

Results

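The genes of DNA replication and mitosis are the machinery with which a cell copies and divides its chromosomes. They were chosen by name, as 49 genes in 4 groups: DNA replication, G1 and S entry, mitosis and the inhibitors of cyclin-dependent kinases (CDKs). Of these, 48 had a probe set that carried their symbol alone, out of 18417 genes measured, and CDKN2C was not analysed here. The groups held 18 replication genes, 12 genes of G1 and S entry, 14 mitotic genes and 4 CDK inhibitors. All 48 had 1 probe set each, so taking the brightest probe set of a gene, as was done for all genes, left no choice among them.

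K562 is a human line derived from a chronic myeloid leukemia, whose cells divide rapidly and can take on erythroid features. The arrays came from 3 K562 lines that carried the empty plasmid pEF1a, called vector lines here, and 3 that carried pEF1a-Pu.2, called Pu.2 lines. Pu.2 is a murine chimeric transcript of the Pu.1 gene, and its protein is PU.1, a blood transcription factor, without the activation domain at the N-terminus. The plasmids were introduced by electroporation, and all 6 lines were kept in puromycin at 2 µg/mL and grown from a single clone each. Each line gave total RNA for 1 Affymetrix array of the Human Gene ST type. A value therefore comes from 1 clone, and the p-values below measure only the spread between such clones and arrays. The medium is unsettled, since an insect cell medium stands in the labels whereas the study's methods give RPMI for K562.

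As background, replication starts when the origin recognition complex, CDC6 and CDT1 load the MCM2-7 helicase onto DNA in G1 phase. CDKs paired with D and E type cyclins release E2F transcription factors, which switch on the genes of S phase, and later CDK1 with A and B type cyclins drives mitosis. CDK inhibitors such as p21 (CDKN1A) and p27 (CDKN1B) restrain these kinases, and erythroid precursors leave the cell cycle as they mature.

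The median log2 value of an array lay between 5.30 and 5.42, and was highest for vector line 1. All 9 K562 erythroid markers measured, of 10 listed, lay at or above the median of all values, 5.37. Their mean was between 8.50 and 8.63 in the vector lines and between 8.75 and 8.95 in the Pu.2 lines, and HBZ, the embryonic ζ-globin, was called higher (log2 difference 1.59, adjusted p = 0.011 from limma). HBZ had by far the largest difference of these markers, and no other was called. HBE1 differed by 0.41 (adjusted p = 0.47 from limma), LMO2 by 0.02 and NFE2 by -0.11. Of 9 measured markers of other cells, 3 lay at or above that median, and their mean ran from 5.31 to 5.53 in the vector lines and from 5.14 to 5.35 in the Pu.2 lines. One of these, EPCAM, stood between 10.28 and 11.08 in all 6 lines. CD3D, a T cell gene, differed between the groups by -1.25 (adjusted p = 0.090 from limma). limma called 68 genes with all lines, 432 without vector line 3 and 42 without vector line 1. Over all genes the deviations from the average of the 6 lines had a like spread in these lines (SD 0.28 and 0.28) and one of 0.26 in vector line 2. The part of any of these in the results below was not tested.

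The promoters of these genes differ between the groups in short sequence motifs, and 5 are shown for that, each with the 250 bases before the start of the gene, from RefSeq on GRCh38.p14. Capitals mark 3 motifs on either strand: the E2F site letters (TTTCCCGC, TTTCGCGC, TTTGGCGC or TTTGCCGC), the letters of the cell cycle homology region or CHR (TTTGAA or TTCGAA, of which TTCGAA reads the same on both strands), and CCAAT. MCM6 and E2F1 are shown as genes of S phase with E2F letters, MKI67 and TOP2A as mitotic genes with CHR letters, and CCNB1 as a mitotic gene that held, of these letters, CCAAT alone. Only the letters listed were searched, so other forms of these motifs were not counted.
MCM6 promoter, chr2:135876444-135876693, minus strand: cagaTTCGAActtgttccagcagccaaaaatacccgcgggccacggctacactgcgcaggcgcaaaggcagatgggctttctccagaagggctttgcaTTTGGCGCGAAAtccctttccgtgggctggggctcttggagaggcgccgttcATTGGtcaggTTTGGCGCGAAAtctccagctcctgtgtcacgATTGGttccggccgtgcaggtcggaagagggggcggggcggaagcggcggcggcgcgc
E2F1 promoter, chr20:33686386-33686635, minus strand: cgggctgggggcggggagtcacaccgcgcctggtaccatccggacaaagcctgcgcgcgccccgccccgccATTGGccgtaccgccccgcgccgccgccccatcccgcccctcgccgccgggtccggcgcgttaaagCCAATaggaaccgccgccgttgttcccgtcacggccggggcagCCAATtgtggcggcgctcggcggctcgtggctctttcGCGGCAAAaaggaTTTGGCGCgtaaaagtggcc
MKI67 promoter, chr10:128126424-128126673, minus strand: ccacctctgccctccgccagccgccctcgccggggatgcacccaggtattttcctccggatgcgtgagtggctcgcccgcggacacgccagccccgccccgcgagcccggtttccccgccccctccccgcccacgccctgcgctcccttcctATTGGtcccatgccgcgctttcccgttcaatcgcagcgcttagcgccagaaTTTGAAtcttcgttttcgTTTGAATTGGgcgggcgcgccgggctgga
TOP2A promoter, chr17:40417897-40418146, minus strand: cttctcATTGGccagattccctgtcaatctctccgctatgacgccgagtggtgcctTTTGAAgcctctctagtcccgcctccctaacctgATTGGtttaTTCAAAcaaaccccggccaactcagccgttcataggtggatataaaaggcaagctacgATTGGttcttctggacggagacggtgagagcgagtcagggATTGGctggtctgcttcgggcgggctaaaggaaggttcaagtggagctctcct
CCNB1 promoter, chr5:69166900-69167149, plus strand: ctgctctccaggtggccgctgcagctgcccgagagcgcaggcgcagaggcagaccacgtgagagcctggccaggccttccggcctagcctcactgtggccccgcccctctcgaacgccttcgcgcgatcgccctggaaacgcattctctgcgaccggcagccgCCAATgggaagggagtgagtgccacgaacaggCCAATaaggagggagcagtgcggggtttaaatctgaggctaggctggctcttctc
In MCM6, E2F letters on the opposite strands overlapped at both places, from 152 to 141 and from 90 to 79 bases before the start. In MKI67, the CHR letters from 29 to 24 bases before the start shared a base with CCAAT on the opposite strand. The E2F1 window held E2F letters from 33 to 26 and from 20 to 13 bases before its own start.

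The whole windows, of 300 bases with 50 after the start, were matched for 41 of the 49 genes listed. E2F letters were in 11 of 16 replication genes (68.75%), 3 of 8 genes of G1 and S entry (37.50%), 1 of 13 mitotic genes (7.69%, CDK1) and 0 of 4 CDK inhibitors, against 3.99% of the 27305 genes with a window and 5.40% of the protein coding ones. The CHR letters ran the other way. They were in 10 of 13 mitotic genes (76.92%), 2 of 16 replication genes (12.50%, MCM6 and RRM1) and 0 of 8 genes of G1 and S entry, against 19.54% of all genes with a window. CCAAT was in 12 of 13 mitotic genes, 13 of 16 replication genes, 3 of 8 genes of G1 and S entry, 3 of 4 CDK inhibitors and 39.72% of all genes with a window. A match is a description of the letters and shows no binding.

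The study asked what forced expression of Pu.2 does in K562 cells, and the comparison of the Pu.2 with the vector lines gives the differences in the genes of replication and division. At an adjusted p under 0.05 over all genes, limma called 0 of the 48 genes, beside 68 of 18417 (0.369%). When limma weighted the arrays by their spread, it called 2 of the 48, E2F1 and CDC25C, among 1349 genes. At an unadjusted p under 0.05, 3 were higher in the Pu.2 lines (MKI67, CDK2 and E2F1), where 3.83% of all genes were. CDC25C was the 1 gene lower at that threshold, where 5.70% of all genes were. In 4 genes every Pu.2 line lay above every vector line (RRM2, E2F1, CDK2 and MKI67; 7.02% of all genes), and in 3 every Pu.2 line lay below (TYMS, CDC25C and AURKB; 6.80% of all genes). These counts are near the background. They also moved with single lines: 1 gene was higher without vector line 2 and 6 without vector line 3, while 3 were lower without vector line 1 and 0 without vector line 2, Pu.2 line 1 or Pu.2 line 3. The matching shares of all genes were not counted, so these shifts cannot be read as particular to the 48 genes. The adjusted calls over all genes moved too, from 68 to 42 without vector line 1, 31 without vector line 2 and 432 without vector line 3. A bulk array cannot tell fewer dividing cells from less RNA per cell, nor can it tell more dividing cells from more RNA per cell.

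**Figure D1:**
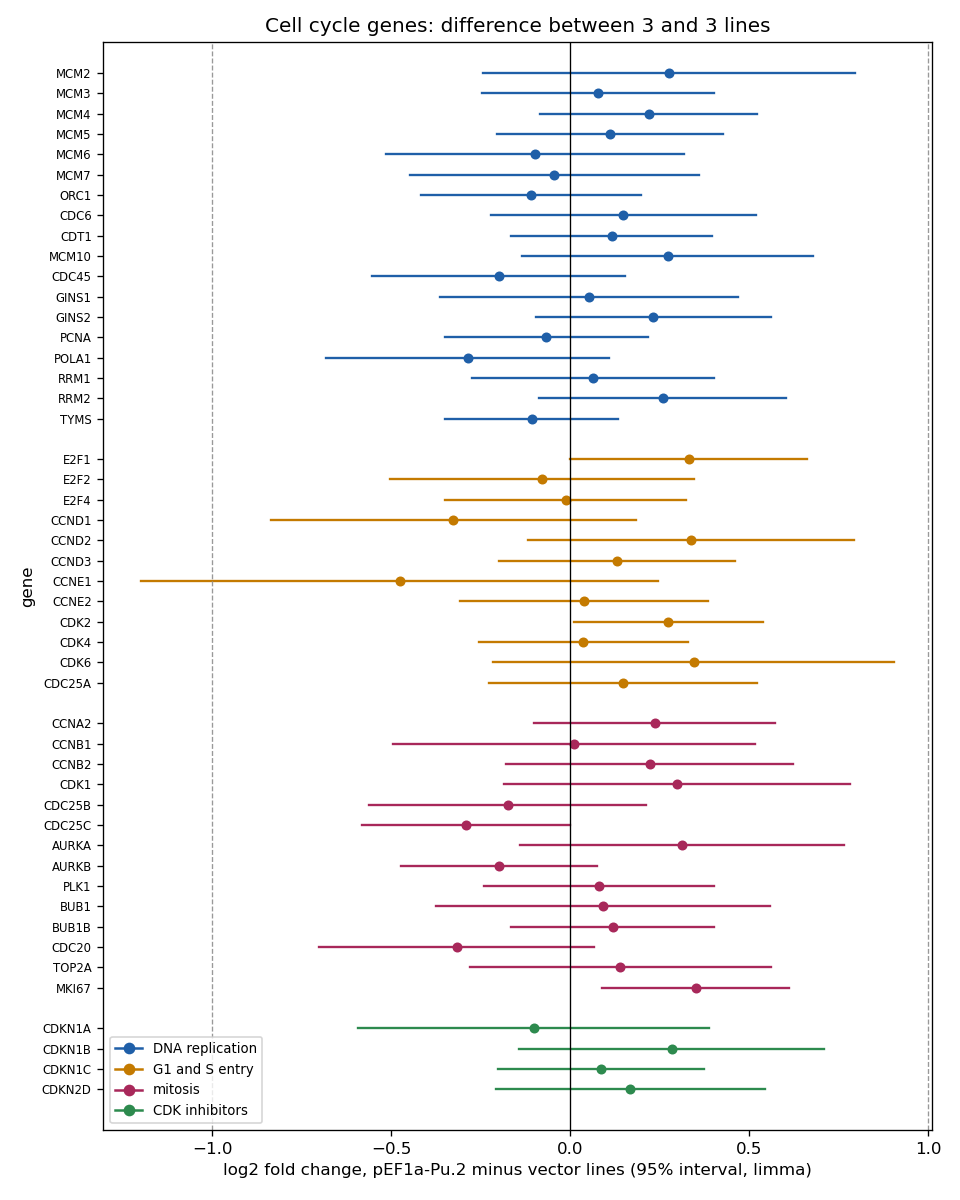
Log2 difference of each of 48 cell cycle genes (Pu.2 minus vector lines, 3 lines each) with its 95% confidence interval from limma, coloured by group, with dashed lines at a 2-fold difference. Points lie between -0.48 (CCNE1) and 0.35 (MKI67), and the interval of CCNE1 is the only one that passes a 2-fold line.

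Differences were small in all groups. The median log2 difference was 0.07 in DNA replication (range -0.29 to 0.28), 0.08 in G1 and S entry (-0.48 to 0.34), 0.10 in mitosis (-0.32 to 0.35) and 0.13 in the CDK inhibitors (-0.10 to 0.28). It was 0.09 over the 48 genes and 0.02 over all genes. All 48 lay at or above the median of all values, and over such genes it was -0.0095. Of the 48 genes, 32 had a difference above 0 (66.67%), beside 54.11% of all genes and 48.42% of those at or above that median. The 95% confidence interval of the difference stayed within 2-fold in 47 of the 48 genes (97.92%; all genes 94.06%) and within 1.5-fold in 32 (66.67%; all genes 71.88%). Among genes at or above that median these shares were 92.06% and 63.80%. None of these gaps between shares was tested. The exception at 2-fold was CCNE1, whose interval ran from -1.20 to 0.25. The smallest difference that limma called in any gene was 0.77 in size, larger than that of any of the 48 genes. Leaving out vector line 1 took the median of replication to -0.01 and that of mitosis to 0.02, and leaving out vector line 3 took them to 0.14 and 0.25. For the CDK inhibitors the same removals gave 0.23 and 0.03.

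Among the DNA replication genes, 11 had a difference above 0 and 7 below, and 0 passed an unadjusted p of 0.05. The 6 subunits of the MCM2-7 helicase, which unwinds DNA at the fork, ran from -0.10 (MCM6) to 0.28 (MCM2). MCM2 read 6.11, 6.48 and 6.98 in vector lines 1 to 3, against 6.97, 6.92 and 6.51 in Pu.2 lines 1 to 3. The groups overlapped, since vector line 3 held the highest value and vector line 1 the lowest, and the difference had a standard error of 0.23 (adjusted p = 0.81 from limma). It was 0.069 without vector line 1, 0.50 without vector line 3 and 0.42 without Pu.2 line 3. The 3 genes of origin licensing lay between -0.11 (ORC1) and 0.15 (CDC6), with CDT1 at 0.12.

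MCM10, which helps to activate the loaded helicase, read 8.66, 9.12 and 9.36 in the vector lines, against 9.28, 9.29 and 9.38 in the Pu.2 lines. Vector line 1 was low and vector line 3 lay among the Pu.2 lines, and the difference was 0.27 (standard error 0.18, adjusted p = 0.73). Without vector line 1 it was 0.079 and without vector line 3 it was 0.43. The other members of that step were CDC45 at -0.20, GINS1 at 0.05 and GINS2 at 0.23, which join the MCM ring in the active helicase. POLA1, the catalytic subunit of the polymerase that starts new strands, read 8.74, 9.18 and 9.40 in the vector lines, against 8.83, 8.74 and 8.89 in the Pu.2 lines. Here vector lines 2 and 3 were above all Pu.2 lines, whereas vector line 1 lay beside the lowest of them, and the difference was -0.29 (standard error 0.17, adjusted p = 0.70). Leaving out vector line 1 gave -0.47 and leaving out vector line 3 gave -0.14. PCNA, the sliding clamp, differed by -0.07.

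Of the enzymes that supply nucleotides, RRM2, the regulated subunit of ribonucleotide reductase, read 8.30, 8.69 and 8.80 in the vector lines, against 8.90, 8.82 and 8.85 in the Pu.2 lines. The groups did not overlap, but vector line 3 and Pu.2 line 2 were close, and the difference of 0.26 had an adjusted p of 0.68 (limma). TYMS, thymidylate synthase, read 11.57, 11.56 and 11.59 in the vector lines, against 11.47, 11.49 and 11.45 in the Pu.2 lines. All Pu.2 lines were lower, by a difference of -0.11 (adjusted p = 0.84), and these were among the tightest values of the 48 genes. RRM1, the other subunit of the reductase, differed by 0.06. RRM2 and TYMS were described in full after their values were seen.

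Among the genes of G1 and S entry, 8 had a difference above 0 and 4 below. E2F1, an activating E2F factor, read 6.41, 5.94 and 6.06 in the vector lines, against 6.44, 6.50 and 6.46 in the Pu.2 lines. All Pu.2 lines lay above the vector lines, though vector line 1 was close to Pu.2 line 1, and the difference was 0.33 (standard error 0.14, unadjusted p = 0.0499, adjusted p = 0.52 from limma). E2F2, another activator, differed by -0.08 and E2F4, mainly a repressor, by -0.01. CDK2, the partner of the E and A cyclins, read 8.08, 8.01 and 8.01 in the vector lines, against 8.18, 8.34 and 8.40 in the Pu.2 lines. The groups were apart, with a difference of 0.27 (standard error 0.12, unadjusted p = 0.044, adjusted p = 0.50).

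The 3 D cyclins, which activate CDK4 and CDK6, did not share a direction. CCND1 read 6.47, 6.74 and 5.80 in the vector lines, against 5.96, 5.96 and 6.11 in the Pu.2 lines. Vector line 3 was the lowest of all lines and vector lines 1 and 2 the highest, and the difference was -0.33 (standard error 0.22, adjusted p = 0.75). Leaving out vector line 3 gave -0.59 and leaving out vector line 2 gave -0.13. CCND2 read 7.02, 7.09 and 6.67 in the vector lines, against 7.35, 6.88 and 7.57 in the Pu.2 lines. Pu.2 lines 1 and 3 were above the vector lines and Pu.2 line 2 among them, with a difference of 0.34 (standard error 0.20, adjusted p = 0.69). That value was 0.18 without Pu.2 line 3, 0.21 without vector line 3 and 0.53 without Pu.2 line 2. CCND3 read 7.46, 7.41 and 7.38 in the vector lines, against 7.82, 7.38 and 7.43 in the Pu.2 lines. Only Pu.2 line 1 was high. The difference of 0.13 (adjusted p = 0.86) became -0.01 without that line and 0.21 without Pu.2 line 2.

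CDK6, the kinase partner of the D cyclins that is prominent in blood cells, read 7.02, 7.51 and 7.50 in the vector lines, against 8.21, 7.28 and 7.58 in the Pu.2 lines. Pu.2 line 1 was the highest and vector line 1 the lowest, while the others overlapped, and the difference was 0.34 (standard error 0.24, adjusted p = 0.76). Without Pu.2 line 1 it was 0.085, without vector line 1 it was 0.18 and without Pu.2 line 2 it was 0.55. CDK4 differed by 0.04. CCNE1, the cyclin E1 that binds CDK2 at the start of S phase, had the largest difference of the 48 genes and the widest spread. It read 6.47, 7.42 and 7.83 in the vector lines, against 6.94, 6.88 and 6.47 in the Pu.2 lines. Vector lines 2 and 3 were the highest of the 6, vector line 1 was as low as the lowest Pu.2 line, and the difference of -0.48 had a standard error of 0.32 (adjusted p = 0.73). It was -0.86 without vector line 1 and -0.18 without vector line 3. CCNE2 differed by 0.04 and CDC25A, a phosphatase that activates CDK2, by 0.15.

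Among the mitotic genes, 10 had a difference above 0 and 4 below. MKI67, which encodes the proliferation marker Ki-67 that coats mitotic chromosomes, read 10.19, 10.31 and 10.38 in the vector lines, against 10.59, 10.64 and 10.70 in the Pu.2 lines. The groups were apart and each group was narrow. The difference of 0.35 (standard error 0.11, 95% confidence interval 0.09 to 0.61) had the lowest p of the 48 genes, 0.015, and an adjusted p of 0.35 (limma). TOP2A, the topoisomerase of condensing chromosomes, differed by 0.14.

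CDC25C, a phosphatase that activates CDK1 at the entry into mitosis, read 6.94, 7.23 and 7.05 in the vector lines, against 6.88, 6.79 and 6.68 in the Pu.2 lines. All Pu.2 lines lay below the vector lines, and the difference was -0.29 (standard error 0.13, unadjusted p = 0.0498, adjusted p = 0.52 from limma). CDC20, an activator of the anaphase promoting complex, read 7.62, 7.81 and 7.47 in the vector lines, against 7.29, 7.61 and 7.06 in the Pu.2 lines. Pu.2 line 2 lay among the vector lines and the others below them, with a difference of -0.32 (standard error 0.17, adjusted p = 0.64), or -0.19 without Pu.2 line 3. The related phosphatase CDC25B differed by -0.17.

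The Aurora kinases differed in opposite directions, and neither difference passed the test. AURKA, which acts at the spindle poles, read 8.86, 9.22 and 9.62 in the vector lines, against 9.74, 9.45 and 9.45 in the Pu.2 lines. Vector lines 1 and 2 were lower than all Pu.2 lines and vector line 3 among them, with a difference of 0.31 (standard error 0.20, adjusted p = 0.72). The removal of vector line 1 gave 0.12 and that of vector line 3 gave 0.51. AURKB, the kinase of the chromosomal passenger complex, read 7.92, 7.76 and 7.93 in the vector lines, against 7.74, 7.73 and 7.55 in the Pu.2 lines, and was described in full after its values were seen. All Pu.2 lines were lower, vector line 2 only just missing them, by a difference of -0.20 (adjusted p = 0.69). CCNA2, CCNB2 and CDK1 had differences of 0.24, 0.22 and 0.30, and CCNB1, the main mitotic cyclin, one of 0.01. PLK1 differed by 0.08, BUB1 by 0.09 and BUB1B by 0.12.

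The Pu.2 and vector lines overlapped in every CDK inhibitor measured, with 3 differences above 0 and 1 below. CDKN1A, the inhibitor p21, read 6.10, 5.39 and 5.25 in the vector lines, against 5.48, 5.40 and 5.55 in the Pu.2 lines. Vector line 1 was the highest of the 6 and the other 5 lay close together, near the median of all values, 5.37. The difference of -0.10 (standard error 0.21, adjusted p = 0.94) became 0.16 without vector line 1, and was -0.20 without vector line 2, -0.27 without vector line 3 and -0.06 without Pu.2 line 2. CDKN1B, the inhibitor p27, read 7.0, 6.92 and 6.99 in the vector lines, against 7.66, 7.19 and 6.91 in the Pu.2 lines. Pu.2 lines 1 and 2 lay above the vector lines and Pu.2 line 3 at their lower edge, with a difference of 0.28 (standard error 0.19, 95% confidence interval -0.14 to 0.71, adjusted p = 0.73). It was 0.078 without Pu.2 line 1 and 0.46 without Pu.2 line 3.

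CDKN1C, the inhibitor p57, read 6.59, 6.44 and 6.27 in the vector lines, against 6.48, 6.48 and 6.59 in the Pu.2 lines. The groups overlapped, with a difference of 0.09 (standard error 0.13, adjusted p = 0.90). The value was 0.16 without vector line 1, 0.0046 without vector line 3 and 0.049 without Pu.2 line 3. CDKN2D, the INK4 inhibitor p19 of CDK4 and CDK6, read 6.26, 5.83 and 5.68 in the vector lines, against 6.02, 6.05 and 6.20 in the Pu.2 lines. Vector line 1 was the highest of all and vector lines 2 and 3 the lowest, and the difference was 0.17 (standard error 0.16, adjusted p = 0.84), or 0.34 without vector line 1 and 0.047 without vector line 3. A p that misses the threshold does not show that the groups were alike. The upper limits of the 4 intervals ran up to 0.71.

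The wider variation in these genes was among the vector lines. In 40 of the 48 genes the range of the 3 vector lines was larger than the difference between the groups (83.33%), a share like that of all genes (83.14%). The median range was 0.37 in the vector lines and 0.30 in the Pu.2 lines, beside 0.33 and 0.28 over all genes. Over genes at or above the median of all values it was 0.37 and 0.29. The widest vector ranges were those of CCNE1 (1.36), CCNB1 (0.94) and CCND1 (0.94).

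In many of these genes vector line 1 stood low. It was the lowest of the 6 lines in 24 of the 48 genes, where it was so in 15.56% of all genes and in 20.43% of those at or above the array median. By group it was the lowest in 11 of 18 replication genes (61.11%), 9 of 14 mitotic genes (64.29%), 4 of 12 genes of G1 and S entry (33.33%) and 0 of 4 CDK inhibitors. Its mean deviation from the average of the 6 lines was -0.17 in replication, -0.23 in mitosis, -0.08 in G1 and S entry and 0.21 in the CDK inhibitors, against 0.03 over all genes and 0.0017 over those at or above the array median. Over the genes of a group that deviation had an SD of 0.24 in replication, 0.27 in mitosis, 0.28 in G1 and S entry and 0.29 in the 4 CDK inhibitors. The groups also differed in signal. Means of the vector lines ran from 5.58 to 6.97 in the CDK inhibitors, 6.14 to 11.57 in replication and 6.24 to 10.46 in mitosis. The part of signal level in these deviations was not tested. Vector line 3 deviated by 0.11 in replication, 0.11 in mitosis and -0.23 in the CDK inhibitors, against -0.01 over all genes and 0.03 over those at or above the array median. It was the lowest line in 3 of the 4 CDK inhibitors, where it was so in 24.74% of all genes and in 21.40% of those at or above the array median. This pattern was noticed in the data and has no test, since it concerns single lines.

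The count depended in part on scaling, as an alternative chosen after seeing the data showed. After quantile normalization vector line 1 was the lowest in 7 of 18 replication genes and 8 of 14 mitotic genes, with mean deviations of -0.12 and -0.17. After median centring of the arrays the counts were 11 and 9, and the deviations -0.23 and -0.29, but over all genes the share in which it was the lowest also went from 15.56% to 22.45% and its mean deviation from 0.03 to -0.04. The CDK inhibitors kept a deviation above 0 under both, of 0.18 and 0.15.

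**Figure D2:**
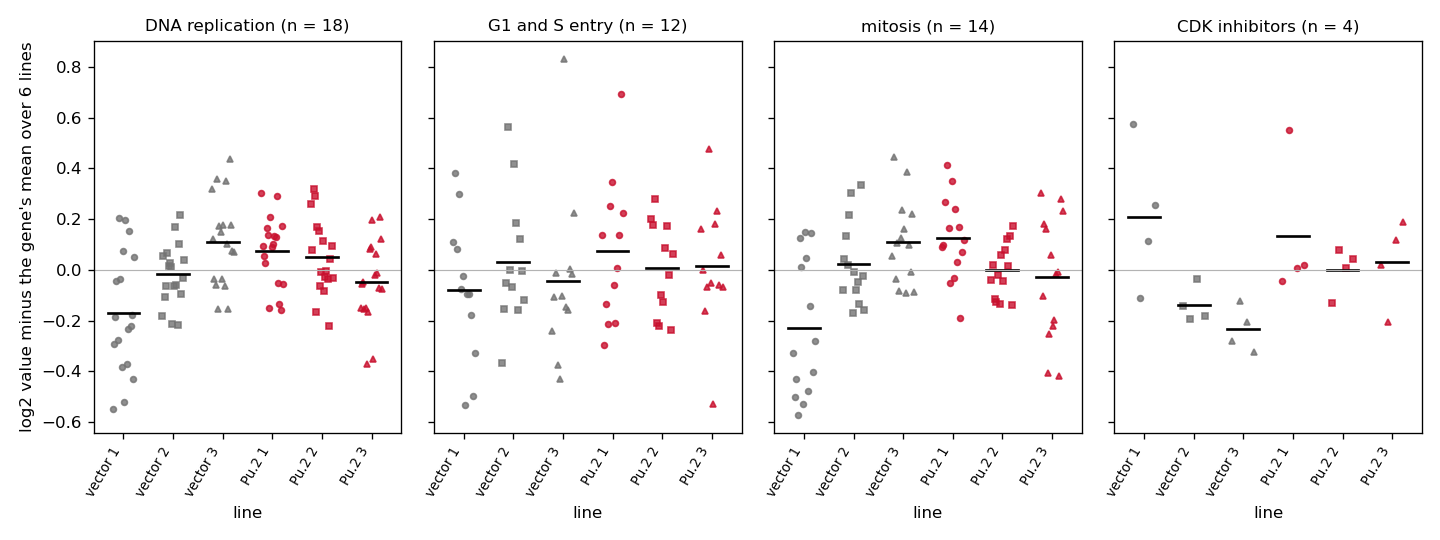
Deviation of each line from the gene's mean over 6 lines (log2, y axis) by line (x axis), with 1 point for each gene of a group and a bar at the mean, grey for vector and red for Pu.2 lines. The mean of vector line 1 is -0.17 in DNA replication and -0.23 in mitosis but 0.21 in the CDK inhibitors, where it rests on 4 genes (SD 0.29).

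Examples picked after their values were seen show how far vector line 1 and vector line 3 were apart. CCNB1 read 9.70, 10.25 and 10.65 in the vector lines, against 10.30, 10.23 and 10.10 in the Pu.2 lines. BUB1, a kinase of the spindle checkpoint, read 9.05, 9.48 and 9.91 in the vector lines, against 9.56, 9.65 and 9.51 in the Pu.2 lines. In both genes the Pu.2 lines fell between vector lines 1 and 3. CDK1, the mitotic kinase, read 8.46, 9.06 and 9.14 in the vector lines, against 9.45, 8.91 and 9.20 in the Pu.2 lines, so that vector line 1 alone was low. From vector line 1 to vector line 3 the step was 0.86 in BUB1, 0.76 in AURKA, 0.72 in GINS1, 0.70 in MCM10, 0.66 in POLA1, 0.64 in MCM6 and 0.62 in TOP2A. It ran the other way in CDKN1A (-0.86), CCND1 (-0.67), CDKN2D (-0.58) and E2F2 (-0.49). In some replication genes vector line 1 was instead the highest, namely MCM7, CDC45 and PCNA, which read 10.23, 10.80 and 10.14 there.

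Genes with and without the promoter letters shown above were set side by side. The median log2 difference was 0.08 in the 15 measured genes with E2F letters and 0.08 in the 25 without, and 0.09 in the 12 with CHR letters and 0.06 in the 28 without. Vector line 1 was the lowest line in 9 of the 15 genes with E2F letters and 8 of the 12 with CHR letters, beside 13 of 25 and 14 of 28 without them. For CCAAT the median difference was 0.09 in the 30 genes with it and 0.01 in the 10 without, and vector line 1 was the lowest in 17 and 5 of them. None of these gaps was tested.

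Other genes of the same pathways, 111 measured of 115 listed, were compared in the same way. The test of limma over all genes called 0 of them, while 5 were higher and 7 lower in the Pu.2 lines by unadjusted p-values under 0.05, beside 3.83% and 5.70% of all genes. In 5 every Pu.2 line lay above every vector line and in 12 every one lay below, beside 7.02% and 6.80% of all genes. Their median difference was -0.0026. Vector line 1 was the lowest line in 13 of 35 other replication genes (37.14%), 11 of 23 other regulators of G1 and S (47.83%), 26 of 44 other mitotic genes (59.09%) and 0 of 9 genes listed as other brakes on division. The list of brakes included MDM2, which acts against p53 and is not itself a brake. Vector line 3 was the highest in 19 of those 35 replication genes (54.29%), 9 of the 23 regulators of G1 and S (39.13%), 13 of the 44 mitotic genes (29.55%) and 1 of the 9 brakes (11.11%). Among the members it was the highest in 7 of 18 replication genes (38.89%), 3 of 14 mitotic genes (21.43%), 1 of 12 genes of G1 and S entry (8.33%) and 0 of 4 CDK inhibitors. It was so in 17.47% of all genes and in 23.90% of those at or above the array median.

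Among the other mitotic genes, SPC25 had the lowest p of the pathway. It encodes a subunit of the NDC80 complex, which ties kinetochores to microtubules, and read 8.86, 8.92 and 8.67 in the vector lines, against 7.94, 8.15 and 7.57 in the Pu.2 lines. All Pu.2 lines were well below the vector lines, with a difference of -0.93 (standard error 0.17, adjusted p = 0.084 from limma). Leaving out any other line gave no call. Without vector line 3, where limma called 432 genes in place of 68, the adjusted p was 0.025, with a difference of -1.0. The other 3 subunits of that complex, looked up after this value was seen, had differences of 0.04 (NDC80), -0.03 (NUF2) and 0.15 (SPC24), but the SPC24 probe set was dim, below the array median with group means of 4.63 and 4.78. CENPE, a kinetochore motor, read 8.42, 8.65 and 8.84 in the vector lines, against 9.19, 9.10 and 9.66 in the Pu.2 lines. These groups were apart in the other direction, with a difference of 0.68 (standard error 0.18, adjusted p = 0.24).

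CHEK2, a checkpoint kinase of the DNA damage response, read 6.29, 6.36 and 6.73 in the vector lines, against 5.81, 5.84 and 5.73 in the Pu.2 lines. The groups were apart, with a difference of -0.66 (standard error 0.14, adjusted p = 0.14). CCNH, the cyclin of the CDK-activating kinase, read 8.85, 9.11 and 9.71 in the vector lines, against 9.60, 9.84 and 9.69 in the Pu.2 lines. Vector line 3 lay among the Pu.2 lines, and the difference of 0.49 (adjusted p = 0.52) became 0.73 (adjusted p = 0.041) without that line. In that setting limma called 432 genes in all, and leaving out any other line gave no call for CCNH. CDK7, the kinase partner of CCNH, was looked up after the value of CCNH was seen. The brighter of its 2 probe sets had a difference of -0.45 (unadjusted p = 0.071, adjusted p = 0.59 from limma), and the groups overlapped.

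In the other replication genes the largest differences were those of RNASEH2A, a subunit of ribonuclease H2, and GINS3, of the helicase. RNASEH2A read 9.13, 8.88 and 8.46 in the vector lines, against 8.46, 8.41 and 8.02 in the Pu.2 lines. Vector line 3 and Pu.2 line 1 met at the border, with a difference of -0.53 (adjusted p = 0.43). GINS3 had a difference of -0.30 (adjusted p = 0.55). Among the brakes, TOB1, an antiproliferative protein, read 8.56, 8.99 and 9.24 in the vector lines, against 8.52, 8.27 and 8.42 in the Pu.2 lines. All Pu.2 lines were below, vector line 1 narrowly, with a difference of -0.53 (adjusted p = 0.38). MDM2 stood in the same list, though it is a ubiquitin ligase that acts against p53 and is not itself a brake. Its difference was -0.36 (adjusted p = 0.53).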

How the data were processed

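The authors hybridized total RNA of 6 K562 lines to Affymetrix arrays, processed them in Expression Console and deposited a log2 value for every probe set. Its algorithm and version, and any scan batch, are not stated in what was used here. Each line has 1 array, and the number of arrays limits the precision.

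Probe sets were named through the platform annotation. Of 33297, 19460 carried 1 symbol (19429 found by gene ID in GRCh38.p14) and 1754 several, which were not used. The brightest of the probe sets of a gene was taken, which gave 18417 genes. Groups were compared over all of them by limma (version 3.58.1, under R 4.3.3; eBayes with no trend after lmFit, Benjamini-Hochberg adjustment, threshold 0.05), dim probe sets included. The fit was tested on simulated data.

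The members and lists, also the companion genes, were chosen with earlier results of these data known. Values in every line are given for members past a threshold, the 3 largest differences of each group, all CDK inhibitors and all D cyclins. Of the companion lists the 2 largest differences each are given. Other names were chosen after their values were seen. CDKN2C and 4 companion genes were not analysed here.

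As alternatives, a block for the replicate number was added, and lines were left out in turn. Others were a filter on dim probe sets, quantile normalization, median centring, a trend with a robust fit, array weights, the mean of the probe sets and a test of every probe set. Deviations from the group means of lines with the same number correlated at -0.15, -0.15 and -0.04, and those of lines with different numbers at -0.0042 to 0.12. No pairing is stated, so the lines were compared unpaired. With 3 lines a group these correlations cannot settle whether lines with the same number shared a batch.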

Additional observations from a re-analysis of the deposited data

How the results depend on the processing

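No member passed limma over all genes under any alternative but array weights, which called E2F1 (0.50, adjusted p = 0.032) and CDC25C (-0.41, adjusted p = 0.045), so 2 in place of 0, and 9 companion genes in place of 0. The companion genes called were RNASEH2A, E2F6, CHEK2, CCNH, CENPE, SPC25, LMNB1, MDM2 and TOB1. That setting gave weights from 0.40 (vector line 1) to 5.52 (vector line 2) and called 1349 genes in all. With a line left out, 0 members were called each time and 0 to 2 companion genes, the 2 being SPC25 and CCNH without vector line 3.

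Members higher at an unadjusted p under 0.05 numbered 3, but 1 with the replicate block, 1 among genes at or above the array median, 1 with a trend and robust fit, 7 with array weights and 1 to 6 with a line left out. Members lower numbered 1, but 0 with the replicate block, the filter, quantile normalization, a trend and robust fit or every probe set, 5 with array weights and 0 to 3 with a line left out. The shares of all genes at that threshold were not counted under these settings. Over all genes the adjusted calls ran from 20 to 432 with a line left out and were 1349 with array weights. The block changed no call among the members and companion genes at the adjusted threshold, while over all genes 64 were called in place of 68. The median of G1 and S entry ran from 0.059 to 0.13 with a line left out.

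The alternatives were fitted over all genes. Differences under each of them were compared for the 18 members picked by the rule for values in every line. For the other members and the companion genes only the calls were listed. Of 252 values, 247 kept their direction and side of the threshold, 2 passed it and 3 reversed. In most of the 18 genes the removal of at least 1 line moved the difference by over 1.5 times. E2F1, CDK2, CDC25C and MKI67 were moved less than that by every removal. CCND3 ran from -0.0096 without Pu.2 line 1 to 0.21 without Pu.2 line 2. CDKN1A ran from -0.27 without vector line 3 to 0.16 without vector line 1, and was 0.041 with array weights. The median of all genes stayed between -0.02 and 0.04. In the comparison as reported, the smallest difference called in any gene was 0.77 in size.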
